A study of Mus musculus with 8 samples.

Results

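The keratin genes are the members described here: every protein-coding row of the deposited tables whose symbol is Krt followed by a number and, at most, 1 letter. That rule found 53 of 55487 rows, or 53 of 21936 protein-coding rows. It leaves out the keratin-associated proteins, and Krt74, which the tables class as a transcribed unitary pseudogene, was the 1 keratin symbol it left out for its gene type. By chain type, 28 members were type I and 25 were type II.

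Bulk RNA-seq libraries came from 4 mouse cell lines named PLA, PLA4, PL1 and PL12, with 2 libraries per line, labelled replicate 1 and replicate 2. The lines were grown from lung squamous cell carcinoma (LUSC) of engineered mice, in a series about the loss of the scavenging chemokine receptor ACKR3. The labels spell out neither the letters of the line names nor the engineered alleles, give no agent, time or age, and do not say how ACKR3 was lost or whether a line is 1 clone. The first pair of lines is written as PLA lines below, the second as PL lines. Separate cultures are not stated for replicates 1 and 2, so every p-value reflects spread among libraries that may be technical.

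Keratins are the intermediate filament proteins of epithelial cells. A filament is built from pairs of 1 type I and 1 type II chain, so the genes of both types are used together, and most cells use a characteristic pair. Krt5 with Krt14 is the pair of basal cells in stratified epithelia, Krt8 with Krt18 that of simple (single-layered) epithelia, and Krt6 genes with Krt16 and Krt17 are induced in wounded or hyperproliferating epithelium. Squamous carcinomas of the lung are commonly recognised by basal keratins, and glandular lung tumours by Krt7, Krt8, Krt18 and Krt19.

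Ackr3, the gene the labels concern, stood at 0.22 and 0.17 TPM in PLA, 1.61 and 1.25 TPM in PLA4, 45.6 and 19.6 TPM in PL1 and 12.6 and 13.8 TPM in PL12, all 4 PLA-line libraries below the PL-line ones. TPM is a level corrected for gene length and scaled to the same total in each library. The libraries held between 48857960 and 142458281 counts, so that 3 counts, the limit set by a count of 0, are 0.0211 to 0.0614 CPM (counts scaled to library size), a bound on counting error alone. Epithelial markers (Epcam, Cdh1, Cldn4, Cldn7, Esrp1 and Grhl2, 6 of 6 above 1 TPM in every library) summed to between 985 and 1835 TPM. Fibroblast markers summed to 84.7 TPM in PL1 replicate 2 and to between 0.28 and 3.07 TPM in the other 7 libraries. Leukocyte markers summed to between 3.27 and 59.9 TPM, with Ptprc and Cd3e at 0.01 TPM or less. Of the leukocyte list, Cd68 was at 41.0 and 39.0 TPM and Itgam at 17.2 and 16.1 TPM in PLA, and Csf1r at 5.47 and 5.48 TPM and Ly6g at 4.46 and 3.22 TPM in PL12. Their part in the keratin differences was not tested. Endothelial and mesothelial markers summed to 1.18 TPM or less. Airway and alveolar markers summed to between 0.75 and 36.3 TPM, with Foxj1 between 0.32 and 36.0 TPM, Ager between 0.26 and 1.12 TPM and Scgb1a1 at 0 throughout.

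The libraries of PLA4 differed from each other in many genes, and so did those of PL1. Of the genes with a line mean of at least 1 TPM, 13.5% lay over 2-fold apart between the PLA4 libraries and 11.8% between the PL1 libraries, against 1.28% in PLA and 3.12% in PL12. Keratin results that rest on PLA4 or PL1 are therefore given with and without those libraries. In a fit that leaves 1 library of a line, that line adds no spread. Standard errors and p-values of such a fit come from the other lines alone, and its calls are descriptions.

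The members lie in 2 gene clusters on the GRCm38 genome (GENCODE mouse release 21). The chromosome 11 cluster, chr11:99232761-100269871, holds 27 type I members from Krt222 to Krt42 over 1037 kb. The chromosome 15 cluster, chr15:101347444-102032027, holds the 25 type II members and the type I gene Krt18 over 685 kb, from Krt80 to Krt18. Krt8 and Krt18, whose proteins pair, are thus neighbours at the end of the chromosome 15 cluster, while Krt5 and Krt14 lie on different chromosomes.

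Promoter windows from RefSeq (GRCm38.p6), 300 bases across a transcription start, were matched to 36 of the 53 members by symbol, with 37 windows. The windows of the basal pair and of 3 simple epithelial keratins are shown, all from members with a mean of at least 100 TPM. Members without a matched window included Krt6a, Krt6b, Krt16, Krt17 and Krt19, so these could not be shown. Capitals mark matches on either strand to 1 of 3 motifs. The TATA box was searched as TATAAA. The core bound by AP-1 was searched as TGANTCA and the GC box as CCGCCC, and matches of different motifs do not overlap in the windows shown. The Krt5 window is chr15:101712856-101713155 on the minus strand, the Krt14 window chr11:100205981-100206280 on the minus strand, the Krt8 window chr15:102004293-102004592 on the minus strand, the Krt18 window chr15:102027966-102028265 on the plus strand and the Krt7 window chr15:101412153-101412452 on the plus strand.
Krt5: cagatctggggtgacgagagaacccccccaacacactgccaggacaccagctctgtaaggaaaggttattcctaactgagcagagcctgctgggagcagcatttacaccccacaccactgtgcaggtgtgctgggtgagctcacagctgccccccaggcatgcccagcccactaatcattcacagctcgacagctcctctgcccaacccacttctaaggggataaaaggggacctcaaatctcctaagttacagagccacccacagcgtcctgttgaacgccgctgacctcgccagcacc
Krt14: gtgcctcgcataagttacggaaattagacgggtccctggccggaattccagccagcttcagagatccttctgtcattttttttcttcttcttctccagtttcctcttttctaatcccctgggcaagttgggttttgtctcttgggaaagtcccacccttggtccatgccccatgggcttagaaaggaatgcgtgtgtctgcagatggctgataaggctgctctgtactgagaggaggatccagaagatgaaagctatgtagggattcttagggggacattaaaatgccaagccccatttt
Krt8: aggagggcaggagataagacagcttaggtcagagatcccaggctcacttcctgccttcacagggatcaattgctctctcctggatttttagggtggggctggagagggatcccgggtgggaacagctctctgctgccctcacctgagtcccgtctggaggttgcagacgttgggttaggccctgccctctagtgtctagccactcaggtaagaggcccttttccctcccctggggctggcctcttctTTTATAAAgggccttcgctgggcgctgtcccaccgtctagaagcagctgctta
Krt18: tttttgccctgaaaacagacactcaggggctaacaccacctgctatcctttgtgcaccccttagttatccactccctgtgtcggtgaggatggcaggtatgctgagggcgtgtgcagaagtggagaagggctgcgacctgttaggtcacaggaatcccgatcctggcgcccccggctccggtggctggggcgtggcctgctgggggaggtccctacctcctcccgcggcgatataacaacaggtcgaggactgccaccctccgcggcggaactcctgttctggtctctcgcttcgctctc
Krt7: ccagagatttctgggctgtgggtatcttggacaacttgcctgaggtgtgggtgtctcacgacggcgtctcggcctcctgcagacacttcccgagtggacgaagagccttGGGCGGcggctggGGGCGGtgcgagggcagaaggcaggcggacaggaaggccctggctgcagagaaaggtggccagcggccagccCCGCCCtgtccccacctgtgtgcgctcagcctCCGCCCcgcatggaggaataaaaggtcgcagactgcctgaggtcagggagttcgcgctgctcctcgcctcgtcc
The Krt8 window holds 1 stretch that matches TATAAA on both strands, with first bases at -2 and 0, the transcription start base being counted as 1. It thus lies on the start of that window rather than upstream of it. The Krt7 window holds 4 CCGCCC matches. None of the 3 motifs was found in the Krt5, Krt14 or Krt18 windows as printed, which says only that these letters are not in them. Over all keratin windows, TATAAA was in 19 of 37 (51.4%), against 13.6% of 32851 RefSeq windows of the same length. CCGCCC was in 2 of 37 (5.41%), those of Krt7 and Krt75, against 35.7% of all windows, and TGANTCA was in 2 of 37 (5.41%), both of Krt13, against 7.81%. Genes in clusters share descent, so these shares are descriptions. The windows of Krt14 and Krt7 lie inside the span of the annotated gene, whose annotated start lies farther upstream. The transcription starts of the Krt8 and Krt18 windows also lie inside the annotated genes, downstream of the annotated starts. The place of the Krt8 match therefore holds for the start of that window only.

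Most keratin genes were at or near 0 in these lines. A mean of at least 100 TPM over the 8 libraries was reached by 10 members, of at least 5 TPM by 16 and of at least 1 TPM by 18, leaving 35 members under 1 TPM. The filter on low counts passed 32 members to the test and left out 21. Of those 21, 5 had no count in any library (Krt2, Krt26, Krt34, Krt72 and Krt82), and the other 16 had at most 46 counts in all and at most 0.46 TPM in any library. Hair and nail keratins made up 23 members, of which 7 were tested, and the highest of them, Krt87, peaked at 2.69 TPM. The 53 members together held 1.76% ± 0.0265 of PLA TPM, 1.75% ± 0.164 of PLA4 TPM, 1.24% ± 0.449 of PL1 TPM and 0.936% ± 0.105 of PL12 TPM (SD, n = 2 libraries each). PLA and PLA4 overlapped, as did PL1 and PL12.

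**Figure D1:**
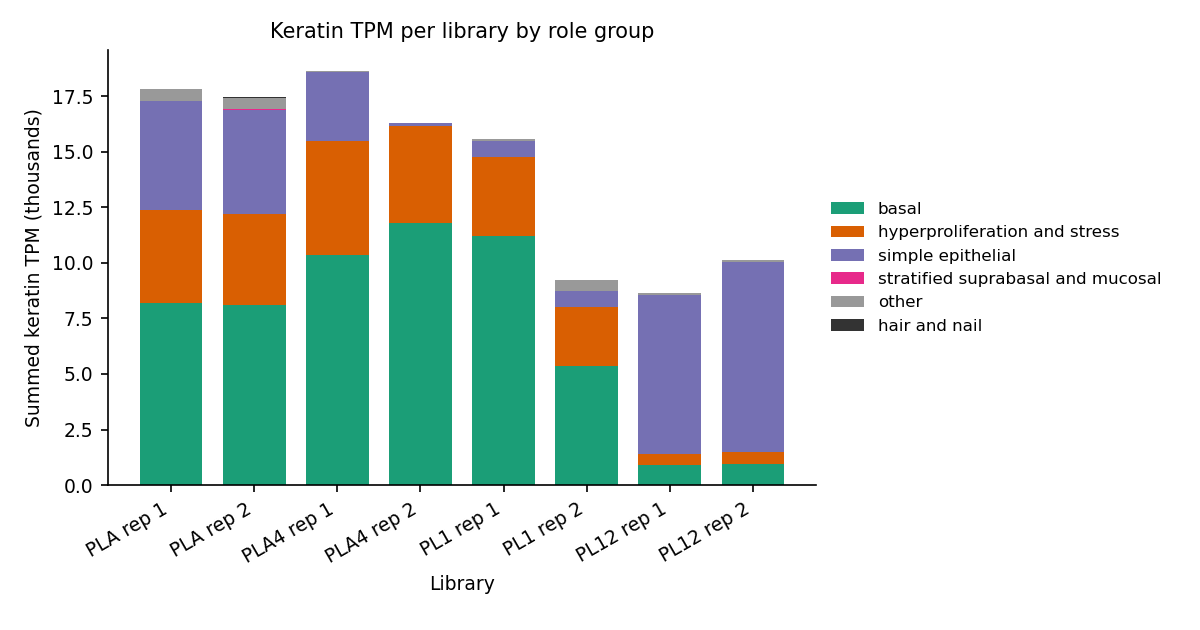
Summed keratin TPM in each of the 8 libraries, stacked by role group. Basal keratins fill the largest part of every PLA, PLA4 and PL1 library, and simple epithelial keratins are on average 83.8% of the PL12 bars; the summed height is lowest in PL12 replicate 1.

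The lines differed mainly in which keratins made up that sum. In PL12, simple epithelial keratins (Krt7, Krt8, Krt18, Krt19 and Krt20) were 83.8% of keratin TPM, basal keratins (Krt5, Krt14 and Krt15) 10.1% and the stress group (Krt6a, Krt6b, Krt16 and Krt17) 5.48%. In PL1 the same shares were 5.94%, 64.8% and 26.0%. PLA had 27.2%, 46.3% and 23.4%. The PLA4 means, 8.66%, 64.0% and 27.1%, stand for unlike libraries: simple keratins were 16.7% of keratin TPM in replicate 1 and 0.658% in replicate 2, and basal keratins 55.6% and 72.4%. PLA therefore carried both programmes at high level: Krt5 (27.2% of keratin TPM), Krt14 (18.7%) and Krt17 (14.8%) led, with Krt7 (10.9%) next. In PL12, Krt18 (29.3%), Krt8 (26.0%), Krt7 (14.4%) and Krt19 (13.9%) led and Krt14 followed at 7.66%. Krt14 led in PLA4 (40.6%) and in PL1 (42.7%), followed in both by Krt5, Krt6a and Krt17.

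In bulk RNA, fewer cells of a type and less RNA per cell cannot be told apart, which holds for every level and difference below. Differences are log2 fold changes from edgeR's quasi-likelihood test over all 18648 genes tested, each with its standard error, and a gene is called where its Benjamini-Hochberg adjusted p is under 0.05. The 6 comparisons between lines reuse the same 8 libraries.

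**Figure D2:**
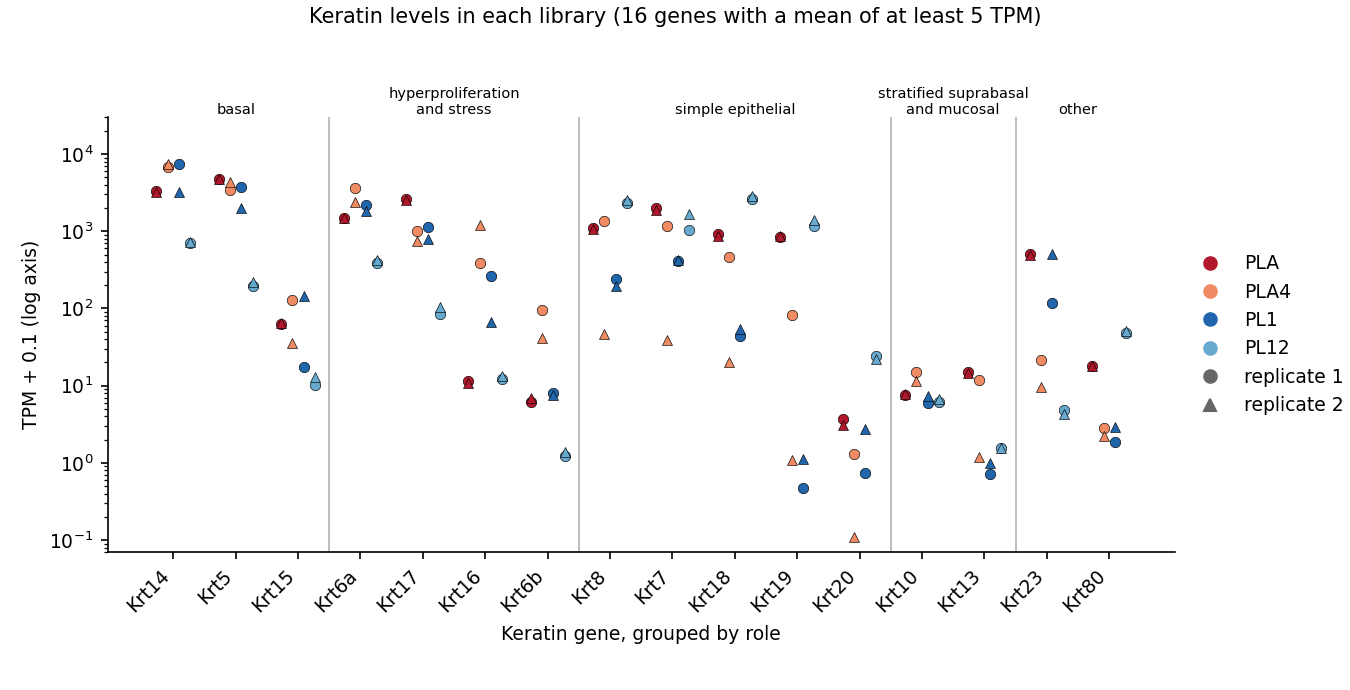
Level of each of the 16 keratins with a mean of at least 5 TPM in each library, as TPM + 0.1 on a log axis, grouped by role; colours are lines and shapes are replicates. PL12 is the lowest line for Krt5, Krt14 and Krt17 and the highest for Krt18, Krt19 and Krt80, and the PLA4 points of Krt7, Krt8, Krt18 and Krt19 lie far apart.

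Of the 3 basal keratins, Krt14 and Krt5 were lower in PL12 than in each other line. Krt14 (ENSMUSG00000045545.8, chr11:100203162-100207548, minus strand), the type I chain of the basal pair, stood at 3346 and 3258 TPM in PLA, 6754 and 7417 TPM in PLA4, 7414 and 3189.7 TPM in PL1 and 711 and 725 TPM in PL12. Both PL12 libraries were below the other 6, which overlapped each other except that PLA4 lay above PLA. Ranked by TPM among all genes, Krt14 was between 6th and 32nd in those 6 libraries and 201st and 202nd in PL12. Krt14 was higher in PLA4 than in PL12 by 3.26 ± 0.435 (edgeR adjusted p = 0.00316), a call that held in every alternative run. It was also higher in PLA by 2.13 ± 0.416 (adjusted p = 0.00977) and lower in PL12 than in PL1 by -2.84 ± 0.427 (adjusted p = 0.00737). The PLA call was lost without either library of PLA or PL12 (adjusted p = 0.0568 to 0.0747) and the PL1 call without either library of PL12 (0.0744 and 0.0731), and without PL1 replicate 1 the PL1 difference was -2.05.

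Krt5 (ENSMUSG00000061527.7, chr15:101707070-101712898, minus strand), the type II partner, stood at 4800.2 and 4791 TPM in PLA, 3469 and 4349.8 TPM in PLA4, 3753 and 2013 TPM in PL1 and 197 and 222 TPM in PL12. PL12 was again apart below, by about an order of magnitude. It was higher than in PL12 by 4.44 ± 0.385 in PLA (adjusted p = 8.51e-04) and by 4.16 ± 0.380 in PLA4 (adjusted p = 0.00106), and PL12 was below PL1 by -3.72 ± 0.372 (adjusted p = 0.00232). All 3 calls held in the 16 alternatives run. Among PLA, PLA4 and PL1, neither Krt5 nor Krt14 was called in any comparison with all 8 libraries. The largest of these differences was that of Krt14 between PLA4 and PLA, at 1.13 ± 0.404 (adjusted p = 0.0810). Differences from PL1 moved with the PL1 library kept, and 1 PL1 library alone gives no spread of its own. Without PL1 replicate 1, Krt5 was higher than in PL1 by 1.30 in PLA and by 1.02 in PLA4. Without replicate 2 these differences were 0.25 and 0.04. Krt14 was higher in PLA4 than in PL1 by 1.22 without PL1 replicate 1 and gave -0.09 without replicate 2. Between PLA and PL1, Krt14 gave 0.10 without replicate 1 and -1.28 without replicate 2. It was higher in PLA4 than in PLA without either PL1 library (1.12 and 1.19, adjusted p = 0.00338 and 0.00271).

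The ratio of the pair differed between the lines. Krt5 over Krt14 in TPM was 1.43 and 1.47 in PLA, between 0.506 and 0.631 in the PLA4 and PL1 libraries, and 0.277 and 0.307 in PL12. The ratios of PLA lay above those of the other lines and those of PL12 below them, and PLA4 and PL1 overlapped. Up to 13.9% of 50-base windows of Krt14 transcripts and 8.52% of those of Krt5 also occur in another gene's transcripts, in Krt14 mostly Krt16.

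Krt15, the other basal type I chain, showed no call in the 6 comparisons with all 8 libraries. It stood at 63.0 and 65.7 TPM in PLA, 128 and 36.0 TPM in PLA4, 17.55 and 144 TPM in PL1 and 10.1 and 12.7 TPM in PL12. The replicates of PL1 spanned 8.15-fold, the widest of that line, and those of PLA4 3.56-fold. Both PL12 libraries were below the other 6. Without either PL1 library Krt15 was higher than in PL12 by 2.43 and 2.36 in PLA and by 2.81 and 2.80 in PLA4. The PLA4 difference was 3.45 without PLA4 replicate 2. PL12 minus PL1 was -3.55 without PL1 replicate 1 and -0.59 without replicate 2, each from 1 PL1 library.

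Of the 4 stress keratins, Krt17, Krt6a and Krt6b were lower in PL12 than in each other line, and the order of the other lines differed from gene to gene. Krt17 (ENSMUSG00000035557.9, chr11:100256217-100261029, minus strand), a type I chain induced in wounds, stood at 2659 and 2562 TPM in PLA, 1022 and 744 TPM in PLA4, 1133 and 791 TPM in PL1 and 83.8 and 104 TPM in PL12. PLA lay above all others, PLA4 and PL1 overlapped, and PL12 lay below. It was higher in PLA than in PL12 by 4.73 ± 0.316 (adjusted p = 4.69e-04), in PLA4 than in PL12 by 3.20 ± 0.294 (adjusted p = 0.00107) and lower in PL12 than in PL1 by -3.31 ± 0.295 (adjusted p = 0.00165), and these calls held in every alternative run. Its excess in PLA over PL1 (1.43 ± 0.275, adjusted p = 0.0138) and over PLA4 (PLA4 minus PLA -1.54 ± 0.276, adjusted p = 0.0104) was lost without either PLA library, with adjusted p between 0.0727 and 0.0980.

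Krt6a (ENSMUSG00000058354.7, chr15:101689910-101694307, minus strand), a type II stress keratin, stood at 1496 and 1493 TPM in PLA, 3606 and 2386 TPM in PLA4, 2171 and 1822 TPM in PL1 and 387 and 423 TPM in PL12. No line overlapped another: PLA4 was highest, then PL1, PLA and PL12. Against PL12 it was higher by 1.80 ± 0.259 in PLA (adjusted p = 0.00346) and 2.83 ± 0.269 in PLA4 (adjusted p = 0.00114), and PL12 was below PL1 by -2.23 ± 0.263 (adjusted p = 0.00366), in every alternative run. The difference of PLA4 from PLA, 1.03 ± 0.254 (adjusted p = 0.0274), was lost without either PLA library (0.143 and 0.146), PLA4 replicate 1 (0.0526) or either PL12 library (0.0624 and 0.0615).

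Krt6b, its near copy, had a narrower place. It stood at 6.05 and 6.92 TPM in PLA, 94.9 and 41.7 TPM in PLA4, 7.89 and 7.39 TPM in PL1 and 1.12 and 1.29 TPM in PL12. PLA4 was above every other line: by 3.42 ± 0.393 over PLA (adjusted p = 0.00288), 3.18 ± 0.389 over PL1 (adjusted p = 0.0110) and 5.77 ± 0.444 over PL12 (adjusted p = 6.83e-04). Without PLA4 replicate 1 these were 2.70, 2.46 and 5.04. The PL1 call was lost without either PL12 library (adjusted p = 0.0518 and 0.0516). Krt6b was also lower in PL12 than in PL1 (-2.58 ± 0.389, adjusted p = 0.00737, lost without either PL12 library at 0.0746 and 0.0700) and than in PLA (PLA minus PL12 2.34 ± 0.386, adjusted p = 0.00549, lost without PL12 replicate 1 at 0.0526). Of the 50-base windows of Krt6b transcripts, 44.5% also occur in Krt6a, and 40.2% of those of Krt6a in Krt6b, so the split of reads between them is uncertain.

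Krt16 (ENSMUSG00000053797.10, chr11:100246091-100248902, minus strand), the usual type I partner of Krt6 chains, stood at 11.6 and 10.7 TPM in PLA, 387 and 1193 TPM in PLA4, 261 and 65.8 TPM in PL1 and 12.0 and 13.2 TPM in PL12. PLA and PL12 lay together at the bottom, PL1 between and PLA4 above, with no overlap between PLA4 and PL1. It was higher in PLA4 than in PLA by 6.17 ± 0.897 (adjusted p = 0.00547) and than in PL12 by 5.92 ± 0.888 (adjusted p = 0.00457), and lower than in PL1 by -3.91 ± 0.807 in PLA (adjusted p = 0.0167) and -3.67 ± 0.799 in PL12 (adjusted p = 0.0221). Sizes moved with single libraries: without PLA4 replicate 2 the PLA4 differences were 5.23 and 4.91, without PLA4 replicate 1 that from PL12 was 6.52, and without PL1 replicate 1 or 2 the PL1 differences were -2.52 or -4.66 (PLA) and -2.28 or -4.35 (PL12). The 2 calls of PLA were lost without either PLA library (adjusted p = 0.0573 to 0.119), that of PLA4 against PL12 without PL12 replicate 1 (0.0522), and that of PL12 against PL1 without either library of PL12 (0.147 and 0.138) or PLA (0.0549 and 0.0548). Of the 50-base windows of Krt16 transcripts, 37.6% also occur in another gene, mostly the pseudogene Gm11597, which was listed at no more than 0.04 TPM.

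Krt6a and Krt16 thus kept no common ratio. The TPM ratio of Krt6a to Krt16 was highest in PLA (129 and 139.7), then PL12 (32.2 and 32.1), and overlapped between PL1 (8.31 and 27.7) and PLA4 (9.32 and 2.00).

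Simple epithelial keratins other than Krt7 had their highest levels in PL12, and they lay far apart between the PLA4 libraries. Krt18 (ENSMUSG00000023043.7, chr15:102028180-102032027, plus strand), the type I chain of the simple pair, stood at 926 and 882 TPM in PLA, 468 and 20.4 TPM in PLA4, 44.4 and 54.7 TPM in PL1 and 2591 and 2905 TPM in PL12. PL12 was above every other library, PLA was next, and PL1 lay between the PLA4 replicates. It was higher in PL12 than in PL1 by 5.85 ± 1.36 (adjusted p = 0.0269), a call lost without any 1 library of PLA, PL1 or PL12 (adjusted p = 0.0620 to 0.109). Without PLA4 replicate 2 the same difference was 5.87 ± 0.179 (adjusted p = 1.53e-04), and without PLA4 replicate 1 it was 5.85 ± 0.176 (1.52e-04).

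Krt8 (ENSMUSG00000049382.10, chr15:101996698-102004482, minus strand), its type II partner, stood at 1110.2 and 1077 TPM in PLA, 1379 and 46.7 TPM in PLA4, 239.55 and 195 TPM in PL1 and 2324 and 2537 TPM in PL12. The order was PL12, PLA and PL1 with no overlap, and PLA4 had 1 replicate above PLA and 1 below PL1. With all 8 libraries no comparison called Krt8, PL12 against PL1 giving 3.55 ± 1.30 (adjusted p = 0.0952). With PLA4 replicate 2 left out, PL12 was above PL1 by 3.56 ± 0.195 (adjusted p = 5.33e-04), PLA above PL1 by 2.27 ± 0.185 (0.00114) and PLA below PL12 by -1.29 ± 0.179 (0.00380). Leaving out PLA4 replicate 1 instead gave 3.55, 2.32 and -1.22 for these comparisons, each called (adjusted p = 5.20e-04, 0.00103 and 0.00423).

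The balance within the simple pair differed as well. The TPM ratio of Krt8 to Krt18 was highest in PL1 (5.39 and 3.55), then PLA4 (2.95 and 2.28), PLA (1.20 and 1.22) and PL12 (0.897 and 0.874), so PL1 and PLA4 lay apart above PLA, and PLA above PL12. Of the 50-base windows of Krt8 transcripts, 26.9% also occur in another gene, mostly its processed pseudogene Krt8-ps. That pseudogene was listed at between 0.37 and 26.3 TPM, highest in both PL12 libraries and lowest in PLA4 replicate 2, the order of Krt8 itself.

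Krt19 (ENSMUSG00000020911.14, chr11:100140810-100148665, minus strand), a type I chain without the usual tail domain, had the widest range. It stood at 851 and 873 TPM in PLA, 81.2 and 1.00 TPM in PLA4, 0.37 and 1.01 TPM in PL1 and 1186 and 1409 TPM in PL12. PLA and PL12 lay together at the top, and PL1 with PLA4 replicate 2 at the bottom. It was higher than in PL1 by 10.29 ± 2.16 in PLA (adjusted p = 0.0177) and 10.93 ± 2.21 in PL12 (adjusted p = 0.0177), from 31 and 104 counts in the PL1 libraries. Each call was lost without any 1 library of its own lines (adjusted p = 0.0617 to 0.0877), and without PL1 replicate 2 the differences were 11.08 and 11.79. Without PLA4 replicate 2 they were 10.23 ± 0.543 (adjusted p = 5.50e-04) and 10.94 ± 0.556 (4.52e-04).

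Krt7 (ENSMUSG00000023039.17, chr15:101411043-101430313, plus strand), a type II chain of glandular and ductal epithelia, stood at 1983 and 1871 TPM in PLA, 1174 and 39.2 TPM in PLA4, 416 and 429 TPM in PL1 and 1035 and 1664 TPM in PL12. It differed from the other simple keratins in being highest in PLA rather than PL12. With all 8 libraries it was called in no comparison, but without PLA4 replicate 2 it was higher than in PL1 in PLA (2.16 ± 0.151, adjusted p = 8.41e-04) and in PL12 (1.98 ± 0.150, adjusted p = 0.00116).

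Krt20, a type I chain of gut and bladder surface cells, was low, at 3.57 and 2.97 TPM in PLA, 1.22 and 0.01 TPM in PLA4, 0.64 and 2.68 TPM in PL1 and 23.8 and 22.1 TPM in PL12. PL12 was above the other lines, with no call from all 8 libraries. Without PLA4 replicate 2 Krt20 was higher in PL12 than in PL1 by 3.90 ± 0.646 (adjusted p = 0.00985) and lower in PLA than in PL12 by -2.95 ± 0.617 (adjusted p = 0.0142).

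For PLA4 against PL1, the direction of Krt7, Krt8 and Krt18 turned with the PLA4 library kept, and that of Krt19 and Krt20 did not. With PLA4 replicate 1 alone (replicate 2 left out), Krt18 was above PL1 by 3.29 ± 0.173 (adjusted p = 0.00145), Krt8 by 2.71 ± 0.208 (0.00349), Krt7 by 1.56 ± 0.171 (0.00894) and Krt19 by 6.93 ± 0.498 (0.00293). With PLA4 replicate 2 alone, Krt18 was below PL1 by -1.27 ± 0.186 (adjusted p = 0.0174), Krt8 by -2.21 ± 0.237 (0.00774) and Krt7 by -3.48 ± 0.209 (0.00189). Krt19 then gave 0.52 ± 0.488 (adjusted p = 0.520). Krt20 gave -0.37 ± 0.733 with replicate 1 alone (adjusted p = 0.768) and was below PL1 by -7.89 ± 1.39 with replicate 2 alone (0.0272). Each of these fits has 1 PLA4 library, which is assumed to vary like the other lines. The level of simple keratins in PLA4 is therefore given per library, and its line mean describes neither.

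**Figure D3:**
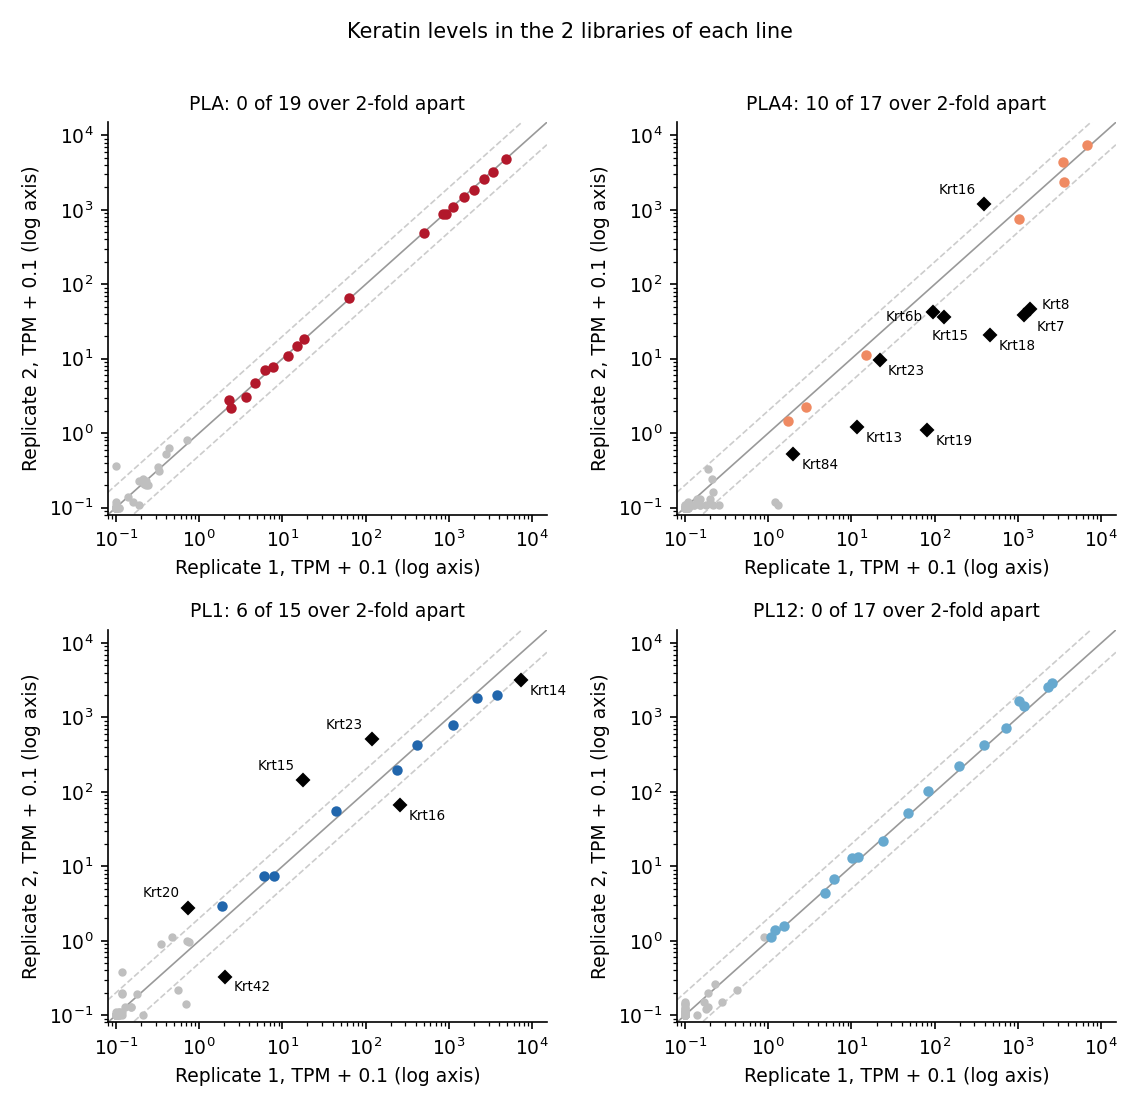
Replicate 1 against replicate 2 of each line for all 53 keratins, as TPM + 0.1 on log axes; the solid line is equality, dashed lines are 2-fold, black diamonds are keratins over 2-fold apart and grey points have a line mean under 1 TPM. PLA (0 of 19) and PL12 (0 of 17) lie on the line, and PLA4 (10 of 17) and PL1 (6 of 15) do not.

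Keratins differed between replicates of the same line more often than other genes did in PLA4 and PL1. Among members with a line mean of at least 1 TPM, 10 of 17 lay over 2-fold apart in PLA4 (58.8%, against 13.5% of 12763 genes) and 6 of 15 in PL1 (40.0%, against 11.8% of 12635 genes). In PLA it was 0 of 19 (1.28% of 12857 genes) and in PL12 0 of 17 (3.12% of 12630 genes). These shares come from 1 pair of libraries per line and were not tested.

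From PLA4 replicate 1 to replicate 2, Krt19 was 73.9-fold lower, Krt7 29.9-fold, Krt8 29.5-fold, Krt18 22.8-fold and Krt13 9.81-fold, folds being taken on TPM + 0.1. Krt15, Krt84, Krt23 and Krt6b were between 2.27-fold and 3.85-fold lower. Krt16 moved the other way, 3.08-fold higher in replicate 2, and Krt14 (1.10-fold) and Krt5 (1.25-fold) stayed within 2-fold. The epithelial marker Cldn7 differed in the same direction, 242 TPM in replicate 1 and 1.28 TPM in replicate 2, while Cdh1 was 251 and 245 TPM. The summed airway and alveolar markers were 5.94 and 0.75 TPM, the summed leukocyte markers 21.6 and 5.99 TPM, and the mesenchymal filament gene Vim 59.2 and 0.19 TPM. The part of these in the keratin difference was not tested.

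In PL1, replicate 2 was higher than replicate 1 in Krt15 (8.15-fold), Krt23 (4.34-fold) and Krt20 (3.76-fold), and lower in Krt42 (6.24-fold), Krt16 (3.97-fold) and Krt14 (2.32-fold). Krt7 (1.03-fold), Krt8 and Krt18 (both 1.23-fold) were close to equal, and of the 6 keratins over 2-fold apart in PL1, Krt15, Krt16 and Krt23 were also among the 10 in PLA4. PL1 replicate 2 also had Col1a1 at 69.0 TPM and Vim at 43.1 TPM, against 0.14 and 0.38 TPM in replicate 1. Another 4 genes of the fibroblast list lay the same way: Dcn was at 0.02 and 10.4 TPM in replicates 1 and 2, Col3a1 at 0.01 and 2.73 TPM, Pdgfrb at 0 and 1.26 TPM and Pdgfra at 0.62 and 1.26 TPM. In sum, 5 of the 8 genes were above 1 TPM in replicate 2, while Col1a2, Lum and Thy1 were at or below 0.06 TPM. Their part was not tested. Across the 53 members on the log2(TPM + 1) scale, PLA4 replicate 2 correlated with PL1 replicate 1 at r = 0.967 and with its own replicate at r = 0.938, which is a description over genes that are not independent.

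Suprabasal and mucosal keratins, 9 members of which 5 were tested, were low. Krt10, the type I chain of differentiating epidermis, stood at 7.55 and 7.69 TPM in PLA, 14.95 and 11.3 TPM in PLA4, 5.89 and 7.33 TPM in PL1 and 6.04 and 6.59 TPM in PL12. PLA4 was highest and PLA next, PL1 and PL12 overlapped below them, and the 1 call, PLA4 over PL12 by 1.14 ± 0.329 (adjusted p = 0.0372), was lost without either library of PLA or PL12 or without PLA4 replicate 1 (adjusted p = 0.0878 to 0.187). Krt1, its usual partner, was not tested and reached at most 0.26 TPM.

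Krt13, the type I chain of mucosal linings such as the oesophagus, stood at 14.8 and 14.6 TPM in PLA, 11.7 and 1.10 TPM in PLA4, 0.62 and 0.89 TPM in PL1 and 1.46 and 1.47 TPM in PL12. Both PLA libraries were highest. Its calls, PLA over PL1 by 4.46 ± 1.07 (adjusted p = 0.0266) and over PL12 by 3.15 ± 1.01 (adjusted p = 0.0497), were lost without any 1 library of PLA, PL1 or PL12 (adjusted p = 0.0579 to 0.206). Without PL1 replicate 2 the PL1 difference was 5.18.

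Krt4, the mucosal type II partner of Krt13, stood at 4.55 and 4.57 TPM in PLA and 0.79 and 1.03 TPM in PL12, with 2 and 0 counts in the PLA4 libraries and none in either PL1 library. Against the floor of 3 counts over both PL1 libraries, it was at least 399-fold higher in PLA (edgeR adjusted p = 0.00245) and at least 88.1-fold higher in PL12 (adjusted p = 0.00512), and these calls held in every alternative run. PLA4, with 2 counts in all, was also lower than PLA (ratio of CPM 0.00122, counting interval 1.48e-04 to 0.00443, adjusted p = 0.00288) and PL12 (ratio 0.00554, interval 6.67e-04 to 0.0203, adjusted p = 0.00363). The difference of PLA from PL12, 2.24 ± 0.608 (adjusted p = 0.0367), was lost without either library of PLA or PL12 (adjusted p = 0.162 to 0.198). Krt4 over Krt13 in TPM was 0.307 and 0.313 in PLA.

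Among the keratins of no fixed role group, Krt23 and Krt80 were the only members above 5 TPM. Krt23 (ENSMUSG00000006777.7, chr11:99477974-99493137, minus strand), a type I chain, stood at 502 and 488 TPM in PLA, 21.7 and 9.43 TPM in PLA4, 117 and 510.1 TPM in PL1 and 4.70 and 4.24 TPM in PL12. PLA and PL1 replicate 2 were highest and alike, and PL12 was lowest. It was higher in PLA than in PL12 by 6.73 ± 0.837 (adjusted p = 0.00225) and lower in PLA4 than in PLA by -4.96 ± 0.768 (adjusted p = 0.00642), both in every alternative run, the second reaching -5.70 without PLA4 replicate 1. PL12 was below PL1 by -6.05 ± 0.812 (adjusted p = 0.00532; -4.69 without PL1 replicate 2, -6.74 without replicate 1, and lost without either PL12 library at 0.0636 and 0.0653). PLA4 was below PL1 by -4.28 ± 0.743 (adjusted p = 0.0262), which was -2.93 without PL1 replicate 2, -4.96 without PL1 replicate 1 and -5.02 without PLA4 replicate 1, and was lost without either library of PLA or PL12 or without PLA4 replicate 2 (adjusted p = 0.0513 to 0.0798).

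Krt80 (ENSMUSG00000037185.9, chr15:101347444-101370162, minus strand), a type II chain found near cell junctions, gave the most stable order of the family. It stood at 18.1 and 18.1 TPM in PLA, 2.71 and 2.13 TPM in PLA4, 1.78 and 2.79 TPM in PL1 and 47.7 and 51.65 TPM in PL12. PL12 was highest and PLA second, and PLA4 and PL1 overlapped at the bottom, the same order of lines as Krt18 apart from PLA4. All 5 comparisons other than PLA4 against PL1 called it in every alternative run: PLA over PL1 by 3.01 ± 0.187 (adjusted p = 8.48e-04), PL12 over PL1 by 4.55 ± 0.200 (3.88e-04), PLA below PL12 by -1.55 ± 0.176 (0.00172), PLA4 below PL12 by -4.65 ± 0.201 (2.22e-04) and PLA4 below PLA by -3.11 ± 0.187 (6.02e-04).

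Keratins under 5 TPM added calls at very low levels. Krt25, a type I chain of the inner hair sheath, had 344 and 293 counts in PLA (2.29 and 2.06 TPM), 26 and 2 in PLA4, 1 and 1 in PL1 and none in PL12. The ratio of PLA to PL1 was 265 (counting interval 72.9 to 2189), and against the floor of 3 counts PLA was at least 139-fold higher than PL12. The PL1 call (adjusted p = 0.0146) was lost without any 1 library of PLA or PL1 (0.0587 to 0.0762), and the PL12 call (adjusted p = 0.00867) without PL12 replicate 2 (0.0563). Krt42 was at 1.62 and 1.35 TPM in PLA4 and 1.96 and 0.23 TPM in PL1, against at most 0.14 TPM in PLA and PL12. It was higher in PLA4 than in PL12 by 4.77 ± 1.17 (adjusted p = 0.0224), a call lost without either PL12 library (0.0898 and 0.145). Its difference between PL12 and PL1, -4.35 ± 1.16 (adjusted p = 0.0408), was -2.04 without PL1 replicate 1 and -5.21 without replicate 2, and was lost without any 1 library other than PLA4 replicate 1 and PL1 replicate 2 (0.0504 to 0.222). Krt84 was at 1.90 and 0.42 TPM in PLA4, and had no count in PL12, against which it was at least 59.9-fold higher (adjusted p = 0.0319), a call lost without either library of PLA or PL12 or without PLA4 replicate 1 (0.0624 to 0.135). The other called members with a mean under 1 TPM were Krt24, Krt33a, Krt33b, Krt36, Krt39, Krt78, Krt79, Krt88, Krt90 and Krt222, none above 0.85 TPM in any library.

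**Figure D4:**
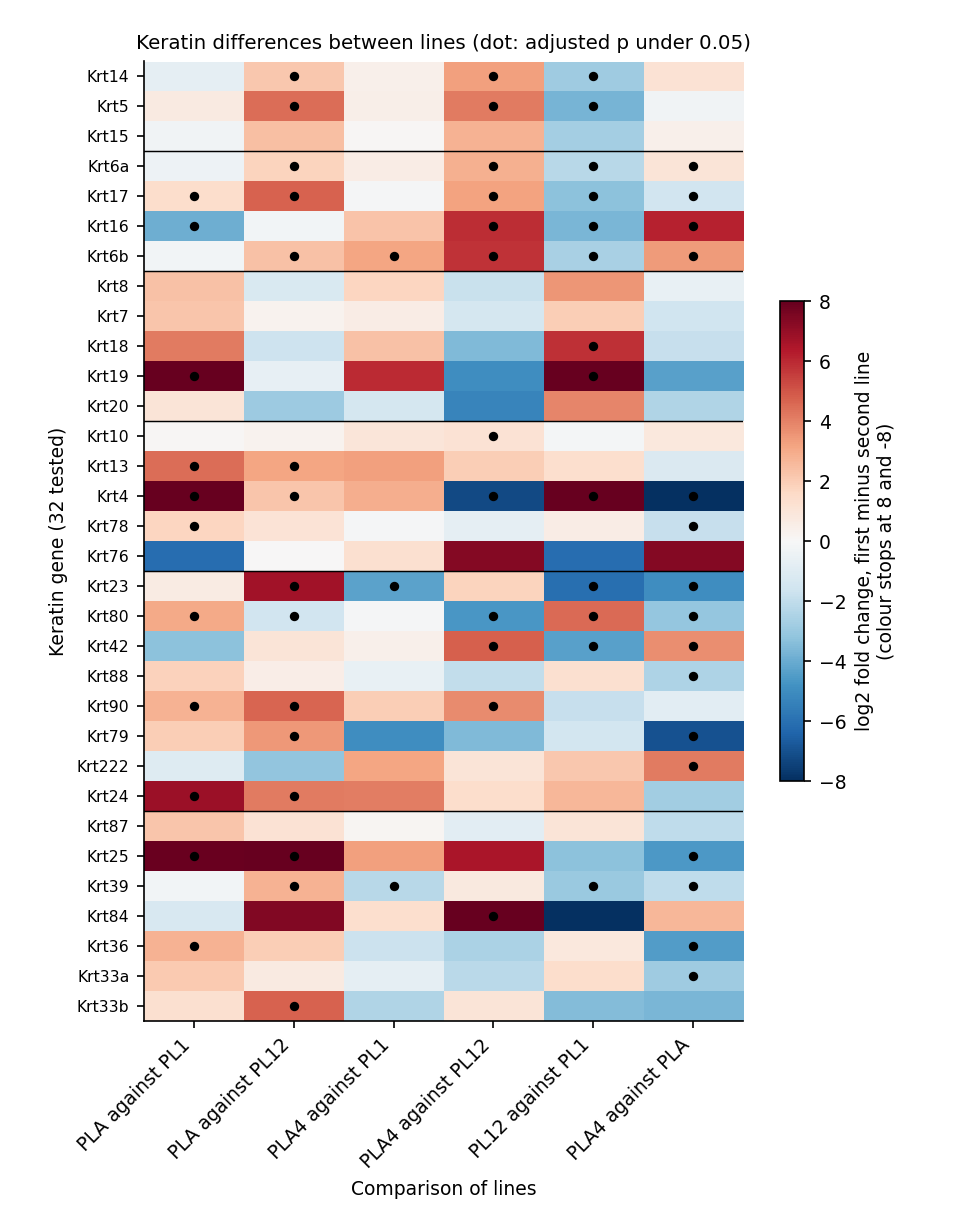
Log2 fold change of the 32 tested keratins in the 6 comparisons (colour, first minus second line, stopping at 8 and -8), with a dot where the edgeR adjusted p is under 0.05; horizontal rules separate the role groups. Fitted values of genes at 0 counts in a line depend on the prior count and are no bounds. In comparisons with PL12 the basal and stress rows carry dots, except Krt15 throughout and Krt16 for PLA, and the simple rows carry 3 dots in all.

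Counted over the family, PL12 against PL1 called 4 of 32 tested members higher (Krt18, Krt19, Krt80 and Krt4) and 9 lower, against 11.2% and 12.5% of all 18648 genes tested. The 9 lower members held 2 of 3 basal keratins and 4 of 4 stress keratins. The median difference was -0.82 over the members and -0.03 over all genes. The count fell without either PL12 library, as did the share of all genes called. Without PL1 replicate 1 and PLA4 replicate 2 it was 20, when 51.5% of all genes were called, and without their other replicates 22 (51.2%).

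PLA against PL12 called 14 members higher in PLA and 1 lower, Krt80, against 20.4% and 17.3% of all genes, with a median of 1.88 (0.05 over all genes). The 14 held 2 of 3 basal and 3 of 4 stress keratins and none of 5 simple ones. The count of 15 fell without either library of PL12 or PLA, and the share of all genes called fell as well. PLA4 against PL12 called 10 higher and 2 lower (Krt80 and Krt4), against 19.2% and 16.8%, with a median of 1.10 (0.02 over all genes). The 10 held 2 of 3 basal and 4 of 4 stress keratins. That count of 12 fell without PL12 replicate 1, as did the share of all genes called. It rose without PLA4 replicate 2, when that share did not rise.

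PLA against PL1 called 10 members higher in PLA and 1 lower, Krt16, against 14.4% and 13.0% of all genes, with a median of 1.57 (-0.01 over all genes). The 10 were spread over the role groups: Krt17, Krt19, Krt4, Krt13, Krt78, Krt80, Krt24, Krt90, Krt25 and Krt36, and none was basal. The count of 11 fell without either library of PLA or PL12 and without PL1 replicate 1, as did the share of all genes called. PLA4 against PLA called 5 higher (Krt6a, Krt6b, Krt16, Krt42 and Krt222) and 11 lower, against 14.1% and 14.9%, with a median of -1.73 (0.04 over all genes). The count of 16 fell without either library of PLA or PL12, as did the share of all genes called.

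PLA4 against PL1 called the fewest, 1 member higher (Krt6b) and 2 lower (Krt23 and Krt39), against 4.61% and 3.93% of all genes, with a median of 0.52 (0 over all genes). The count fell without either library of PL12 or PLA and rose without PL1 replicate 1 or either PLA4 library. The share of all genes called moved the same way in each of these runs. Krt7, Krt8, Krt15, Krt20, Krt76 and Krt87 were the tested members called in no comparison.

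The comparison the series is about, PLA lines against PL lines, called no keratin. Of the 32 tested members, 0 passed with the same sign in all 4 comparisons across the families, against 1.99% of all genes. These comparisons share libraries. The 1.99% belongs to the fit of all 8 libraries, and the matching share of all genes was not computed for the fits with libraries left out. In those fits a line with 1 library adds no spread, so their counts cannot be read against the 1.99%. Without PLA4 replicate 2 there were 2 (Krt13 and Krt25), without PL1 replicate 1 there was 1 (Krt5), without both of these libraries 5 (Krt5, Krt13, Krt17, Krt25 and Krt90), and without their other replicates 1 (Krt15), each higher in the PLA lines. On counts summed per line, with 4 profiles and the line as the replicate, edgeR called 0 of 29 tested members and 0 of 18859 genes (0%), with a lowest adjusted p of 0.852. At an unadjusted p under 0.05 there were 3 members (Krt13, Krt25 and Krt90, chosen for these values) and 867 genes. Their summed differences were 3.16 ± 0.850 for Krt13, 7.88 ± 2.38 for Krt25 and 3.10 ± 0.955 for Krt90. DESeq2 on the same sums called 2, Krt13 and Krt25, and its share over all genes is not given. All 4 PLA-line libraries lay above all 4 PL-line libraries in CPM in 2 members, Krt25 and Krt90, and in either direction in 15.7% of all genes. Both rest on few counts. For Krt25, PLA4 replicate 2 had 2 counts and each PL1 library 1, all at 0.01 TPM. For Krt90, PLA4 replicate 2 had 7 counts and PL1 replicate 1 had 3. For Krt5 and Krt14 the summed differences were 1.56 ± 1.18 (adjusted p = 0.861) and 0.86 ± 1.01 (adjusted p = 0.898).

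**Figure D5:**
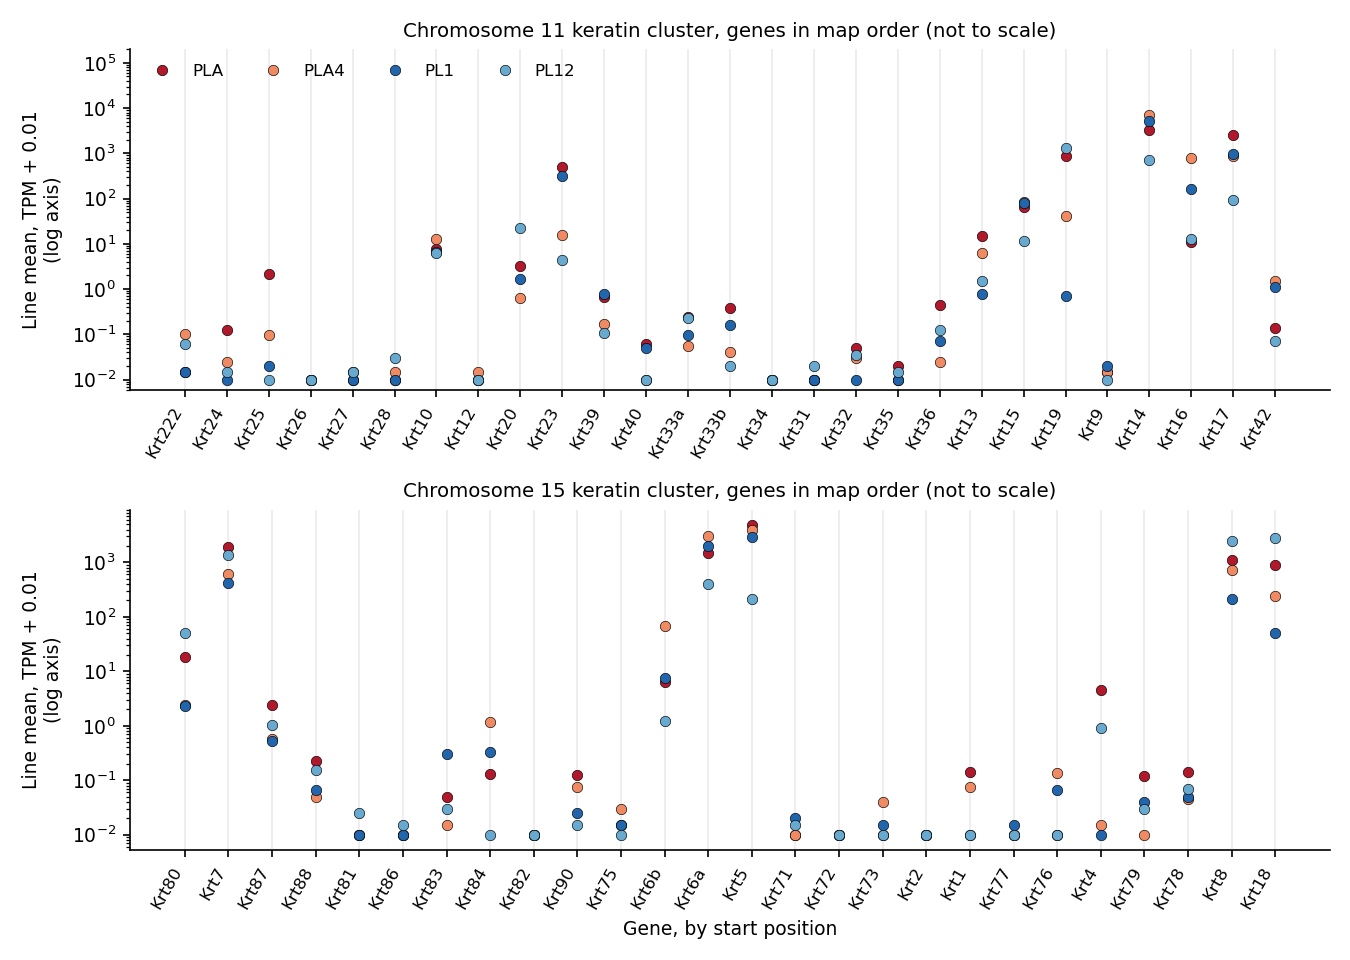
Line mean of every keratin (TPM + 0.01, log axis) in map order along the chromosome 11 cluster (upper panel, 27 genes) and the chromosome 15 cluster (lower panel, 26 genes); distances are not to scale. High genes sit beside genes at 0 in both clusters, and Krt8 and Krt18, the last neighbours of the chromosome 15 cluster, share the order of the lines.

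Level along the clusters is described and was not tested. From Krt13 to Krt17 on chromosome 11, every member had a mean above 5 TPM except Krt9, at 0.005 TPM. Those from Krt39 to Krt36, just before them, stayed under 1 TPM. The chromosome 15 members with a mean of at least 5 TPM lay in adjacent sets: Krt80 with Krt7, Krt6b with Krt6a and Krt5, and Krt8 with Krt18. On chromosome 11, Krt14, Krt16, Krt17 and Krt42 are neighbours, and the order of the lines differed among them: PL12 was lowest for Krt14 and Krt17, PLA and PL12 together for Krt16, and Krt42 stood below 2 TPM. On chromosome 15, Krt5, Krt6a and Krt6b are adjacent and lowest in PL12, with Krt71, the next gene, at 0.02 TPM or less in every library. Summed over the family, type II over type I TPM stayed between 0.728 and 1.13 in the 8 libraries, although individual pairs varied far more.

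Genes that link keratin filaments to desmosomes and hemidesmosomes were described from a list of 15, of which 14 were tested. The list also holds Flg and Tchh, which are not such links. Flg was not tested. Tchh, between 0.73 and 1.38 TPM, is counted in the calls below, higher in PL12 than in each other line. The 15 genes summed to 2097 and 2171 TPM in PLA, 3788 and 4078 TPM in PLA4, 3737 and 1727 TPM in PL1 and 1002 and 1047 TPM in PL12, lowest in PL12 as for the basal keratins. PLA4 against PL12 called 8 higher and 2 lower (19.2% and 16.8% of all genes; median 1.12, against 0.02 over all genes). PL12 against PL1 called 2 higher and 4 lower (11.2% and 12.5% of all genes; median -0.91, against -0.03). Col17a1, a hemidesmosome collagen of basal cells, was lower in PL12 than in PL1 by -2.93 ± 0.526 (adjusted p = 0.0124), and Dst, which anchors keratins at hemidesmosomes, by -2.24 ± 0.332 (adjusted p = 0.00710). Without PL1 replicate 1 these were -2.09 and -1.69, and both calls were lost without either PL12 library (adjusted p = 0.0687 to 0.101). Dsp, the desmosomal plaque protein that binds keratins, was lower by -1.74 ± 0.436 (adjusted p = 0.0339) and Jup, another plaque protein, by -1.24 ± 0.301 (adjusted p = 0.0303). Without PL1 replicate 1 they were -0.84 and -0.70 and without replicate 2 -2.28 and -1.63, and both calls were lost without either library of PLA or PL12 (adjusted p = 0.0767 to 0.178). Ppl, a cornified envelope and plaque protein, was instead higher in PL12, by 2.30 ± 0.173 (adjusted p = 0.00112), and no left-out library ended that call. PLA against PL1 called 1 of the 14 higher and 2 lower (14.4% and 13.0% of all genes; median -0.25, against -0.01), and PLA against PL12 called 2 higher and 1 lower (20.4% and 17.3%; median 0.37, against 0.05). PLA4 against PL1 called 2 higher and 0 lower (4.61% and 3.93%; median 0.39, against 0), and PLA4 against PLA 4 higher and 0 lower (14.1% and 14.9%; median 0.67, against 0.04).

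Of 16 non-keratin intermediate filament genes, 10 were tested. The nuclear lamin gene Lmnb1 was lower in PLA than in PL12 by -1.56 ± 0.225 (adjusted p = 0.00350), and no left-out library ended that call. Vim, the filament of mesenchymal cells, was at 0.02 and 0.03 TPM in PLA, 59.2 and 0.19 TPM in PLA4, 0.38 and 43.1 TPM in PL1 and 9.36 and 10.6 TPM in PL12, with no call. The replicates of PLA4 and of PL1 differed in Vim as they did in keratins, and in PLA4 Vim was high in the replicate with high simple keratins. In PL1, where Vim was high in replicate 2, Krt7, Krt8 and Krt18 differed by at most 1.23-fold between the replicates, and Krt19 (0.37 and 1.01 TPM) and Krt20 (0.64 and 2.68 TPM) lay above in replicate 2. Of the 10 tested genes, PLA against PL1 called 0 higher and 3 lower (14.4% and 13.0% of all genes; median -0.73, against -0.01), and PLA against PL12 called 1 higher and 5 lower (20.4% and 17.3%; median -2.50, against 0.05). For PLA4 against PL1 it was 0 and 0 (4.61% and 3.93%; median 0.43, against 0), and for PLA4 against PL12 0 and 3 (19.2% and 16.8%; median -0.88, against 0.02). For PL12 against PL1 it was 1 and 0 (11.2% and 12.5%; median 0.49, against -0.03), and for PLA4 against PLA 3 and 0 (14.1% and 14.9%; median 0.71, against 0.04).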

How the data were processed

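Bulk RNA-seq of 8 libraries, 2 from each of 4 mouse lines, was analysed from gene tables of 55487 rows. The expected counts and the TPM values are RSEM output deposited by the authors, per the file headers; the submitters' processing notes name FastQC, STAR, RSEM, DESeq2 and the GRCm38 genome, without versions. No per-sample column was left without a sample. Expected counts, 14.25% of which were not whole, were rounded, and the 8 library totals were between 48857960 and 142458281. Genes were filtered with filterByExpr (minimum count 10, minimum total 15), scaled by TMM and tested with edgeR 4.0.16's quasi-likelihood test in R 4.3.3, 1 term per line and no replicate block, with Benjamini-Hochberg adjustment over 18648 genes and a threshold of 0.05. CPM was computed on TMM-scaled library sizes. Standard errors are the fold change over the square root of F. For PLA lines against PL lines the counts were summed per line. Levels are the deposited TPM and are compared between genes only in that unit, which is corrected for length. RSEM shares reads between near-identical copies, which makes Krt6a, Krt6b and Krt16 less certain.

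Members with a mean of at least 5 TPM are given in every library, and others by range or count. The members, role groups and gene lists were chosen with earlier results of these data known. The script was tested on simulated data. Alternatives were DESeq2's size factors, DESeq2 1.42.0, no filter, limma 3.58.1 on log2(TPM + 1) and log2(TPM + 0.1) of genes with a mean of at least 0.1 TPM, the replicate number as a block, and leaving out libraries. A share of 50-base windows counts stretches of a gene's annotated transcripts (GENCODE mouse release 21) that occur identically in another gene's.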

Additional observations from a re-analysis of the deposited data

How the results depend on the processing

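The members under 1 TPM rest on few counts, and 4 residual degrees of freedom limit every test. Of 70 calls of single keratins, 23 held in every one of up to 16 alternatives. Over these calls and alternatives, 854 values stayed past the threshold, 245 fell short of it and 0 turned in direction. Losses named above for single calls are those in runs without 1 library. Some of these calls fell short in other alternatives too, such as Krt42 in PL12 against PL1, which fell short in 9 of 16 in all.

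No keratin was called in all 4 comparisons of the families under DESeq2, DESeq2's size factors, no filter, limma or the replicate block. Leaving out 1 library gave 0 to 2, leaving out PL1 replicate 1 with PLA4 replicate 2 gave 5, and leaving out PL1 replicate 2 with PLA4 replicate 1 gave 1. On summed profiles DESeq2 called 2 and the other alternatives 0, leaving out 1 library included (0 to 0). The matching shares of all genes are not given for these runs.

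For counts in single comparisons, leaving out 1 library gave 2 to 14 for PLA against PL1 (11 with all), 6 to 18 for PLA against PL12 (15), 0 to 9 for PLA4 against PL1 (3), 7 to 19 for PLA4 against PL12 (12), 5 to 16 for PL12 against PL1 (13) and 4 to 18 for PLA4 against PLA (16). Without PL1 replicate 1 and PLA4 replicate 2 these counts were 18, 24, 20, 23, 20 and 28, and without PL1 replicate 2 and PLA4 replicate 1 they were 26, 25, 15, 23, 22 and 28. DESeq2 gave 7 (20.5% of all genes called) and no filter 6 (7.13%) for PLA4 against PL1. For PLA4 against PL12, no filter gave 19 (21.4%). With libraries left out, the share of all genes called moved as well, so the moves in those runs were not confined to keratins. The cause of these moves was not tested.

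Same-numbered libraries of different lines deviated together with r between -0.194 and 0.0148 over 18648 genes. Over the tested keratins r lay between -0.358 (PLA4 with PL12) and 0.151 (PLA with PL1). With 2 libraries per line, these values cannot show whether same-numbered libraries shared a batch or handling. With the replicate block the counts were 7, 11, 1, 10, 13 and 12 in the order above, of which 7, 10, 1, 10, 12 and 12 kept their call. DESeq2's size factors moved the median difference of all genes by at most 0.049 on the log2 scale.

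As a share of expected counts rather than TPM, keratins made up 2.00% (PLA), 2.06% (PLA4), 1.46% (PL1) and 1.09% (PL12). Single libraries gave a TPM share of 1.74% to 1.78% for PLA, 1.63% to 1.86% for PLA4, 0.924% to 1.56% for PL1 and 0.862% to 1.01% for PL12.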
